A study of Mus musculus with 4 samples.

Results

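The genotype dependence of the response to 5-Azacitidine (5-Aza) was examined in all 4 libraries of C3H10T1/2 mesenchymal progenitor cells (MPC), a mouse embryonic fibroblast-like line that can give rise to muscle and fat cells. For each gene at 10 CPM (counts of unique molecular identifiers, UMIs, scaled to a total of 1000000 per library) or more in any library, the response was the level with 5-Aza minus the level with DMSO on the log2(CPM + 1) scale. The genotype difference was the response in H3R26C minus the response in H3WT. Of the 32285 genes in the matrices, 9241 reached the expression minimum, and 339 of them had a genotype difference of at least 1 in size, which is at least a doubling or halving of the ratio of the CPM + 1 values. These 339 genes are the members described here. All values refer to how much a response was amplified, blunted or reversed, and the responses are given only where a difference rests on them.

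5-Aza is a cytidine analog that is built into nucleic acids and traps DNA methyltransferases, so that cytosine methylation is lost over later divisions and methylated genes can come to be transcribed. Transcribed repeats can form double-stranded RNA in such cells, which the innate immune sensors of the cell detect, and interferon-stimulated genes are a well-known part of the response to the drug. In C3H10T1/2 cells, a short pulse is the classical way to convert a part of the culture into muscle and fat cells. Arginine 26 of histone H3 lies next to lysine 27, the residue that Polycomb Repressive Complex 2 (PRC2) methylates to keep developmental genes silent. DNA methylation and the PRC2 mark are separate systems of repression that can act at the same or at different genes.

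Both lines carried a tagged human H3.1 transgene on top of their own histone genes, delivered by a lentiviral vector with the EF1 promoter and held under puromycin selection. The transgene was wild type in H3WT and had cysteine in place of arginine 26 in H3R26C. Cells of each line received 5-Aza at 3 µM for 24 h and were collected on day 28, or received the vehicle DMSO, for which the day of collection is not stated. Time in culture may therefore differ too, and cannot be told apart from the drug within a response. The transgene itself was not measured here, so the labels could not be checked against it. Each of the 4 conditions had 1 library, so no test between conditions was possible, no SD or p-value is given, and a genotype difference also contains whatever set single cultures and libraries apart. The intervals in brackets are 95% counting intervals of the genotype difference and cover counting error only.

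The kept cells numbered 3710 for H3WT DMSO, 5993 for H3WT 5-Aza, 4727 for H3R26C DMSO and 7619 for H3R26C 5-Aza, and held 84060490 to 110712425 UMIs per library. The 5 mesenchymal markers (Pdgfra, Pdgfrb, Col1a1, Col1a2 and Thy1) all passed the minimum, the endothelial markers did not, and Cd68 alone of the blood markers did. Cells with at least 3 of 12 skeletal muscle markers after thinning to 5000 UMIs made up 15.7% of H3WT 5-Aza and 16.6% of H3R26C 5-Aza and none of either DMSO library. Cells with at least 3 of 8 adipocyte markers numbered 11, 38, 12 and 19 in the same order of libraries. The share of cells called in S or G2M phase was higher in H3R26C 5-Aza (10.8% and 12.2%) than in H3WT 5-Aza (4.51% and 5.16%), and it was likewise higher in H3R26C DMSO (5.88% and 5.75%) than in H3WT DMSO (2.86% and 2.91%). Pairs of libraries shared 24 to 58 of their kept barcodes.

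The responses in the 2 genotypes were similar for most genes. The genotype difference lay within 0.5 of 0 for 7945 of 9241 genes (86.0%), its median was -0.09, and the 5th and 95th percentiles were -0.66 and 0.51. Across genes, which are not independent replicates, the responses in H3WT and H3R26C had a Pearson's r of 0.84 and a Spearman's rho of 0.74. They differed in width, with an SD across genes of 0.56 in H3WT and 0.78 in H3R26C. A response of at least 1.5-fold on the log2(CPM + 1) scale, called a rise or a fall below, was seen for 767 genes in H3WT and for 1876 in H3R26C, and 636 genes passed that fold in the same direction in both. Of the 620 rises of H3WT, 375 (60.5%) were larger in H3R26C, and of its 147 falls, 119 (81.0%) were larger there. A larger rise is a genotype difference above 0 and a larger fall one below 0. Over all 9241 genes the difference was above 0 for 3344, so a value below 0 was the more common one whatever the response.

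A genotype difference of at least 1 in size was reached by 3.67% of the genes tested. It was positive for 174 genes (1.88%) and negative for 165 (1.79%), and these 3 shares are the background for the counts below. The counting interval lay wholly beyond 1 for 254 of the 339 genes. At the boundary, Tex19.1 had a difference of 1.0 and Phf11d one of 0.99, and Atp13a2 and Nceh1 both stood at -1.0 on either side of the lower limit. The gene just above the expression minimum was Zfp777 and the one just below was Klhl8, at 10.0 and 9.99 CPM. Under a larger pseudocount of 5 CPM the members were 129 with a positive and 88 with a negative difference.

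The direction of the difference does not say which way a gene responded, so the members were divided by their response in each genotype. An amplified rise, a larger rise in H3R26C than in H3WT, was the largest class with 124 genes, and 47 genes rose in H3R26C alone (gained rises). Falls were amplified for 33 genes and gained for 94. A rise of H3WT was blunted for 13 genes and lost for 19 in H3R26C, whereas no fall of H3WT was blunted or lost by this much. The response was reversed for 7 genes, in 5 of them from a rise in H3WT to a fall in H3R26C. The last 2 genes moved in opposite directions by less than 1.5-fold in both genotypes. By size, whatever its direction, the response was larger in H3R26C for 301 of the 339 members and larger in H3WT for 38. This count is a description. Of the 174 members with a positive difference, 105 reached the expression minimum in H3R26C 5-Aza alone, which favours a larger rise there. Over all genes tested, responses of at least 1.5-fold were also fewer in H3WT (767) than in H3R26C (1876).

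**Figure D1:**
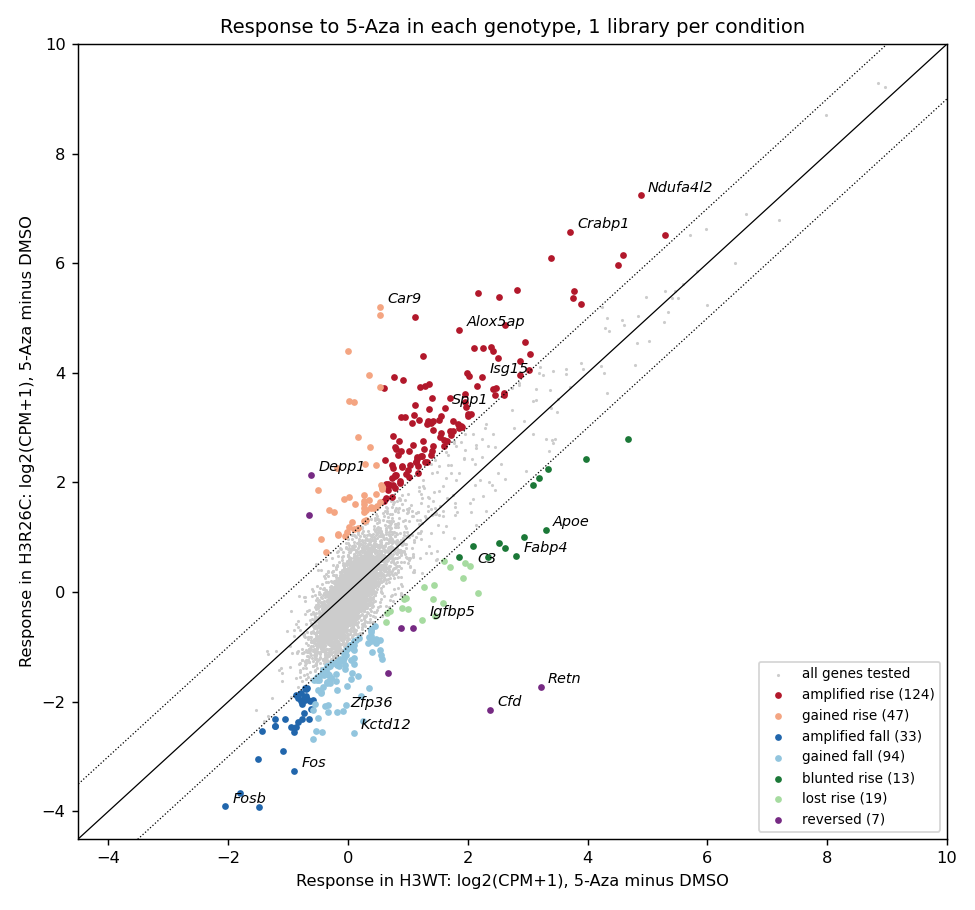
Response to 5-Aza of 9241 genes in H3WT (x axis) and in H3R26C (y axis), both as log2(CPM + 1) with 5-Aza minus DMSO, with 1 library per condition. The solid line marks equal responses and the dotted lines a genotype difference of 1 and -1, and coloured points are the members by class with the number of genes in brackets (2 genes with small opposite responses are left grey). Most members lie above the line at the upper right or below it at the lower left, where H3R26C had the larger response of the same sign.

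The minimum of 10 CPM acted unequally on the members. Of the 174 genes with the higher response in H3R26C, 105 (60.3%) reached it in H3R26C 5-Aza alone, against 321 of all 9241 genes, so that many members were tested only through the library in which they were high. Another 31 of the 174 were at or above the minimum in all 4 libraries. Of the 165 genes with the lower response, 78 reached it in all 4 libraries, 12 in H3R26C DMSO alone and 5 in H3WT 5-Aza alone. Among the 174, 52 were below 1 CPM in both DMSO libraries, against 97 of all genes tested.

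A genotype difference can arise because the lines stood apart with DMSO, because they stood apart with 5-Aza, or through both, and these parts were read from the same 4 levels. For amplified rises the gap between H3R26C and H3WT with 5-Aza made up the larger part in 119 of 124 genes, with a median gap of 0.14 with DMSO and 1.77 with 5-Aza. The same held for 32 of 33 amplified falls and 76 of 94 gained falls. Blunted and lost rises were different, since the gap with 5-Aza was the larger part in 4 of 13 and 9 of 19 genes. The median gap of the blunted rises was 1.16 with DMSO and -0.50 with 5-Aza, so many of these genes were already higher in H3R26C with DMSO alone. These gaps are not tests, since the classes are made from the same values.

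**Figure D2:**
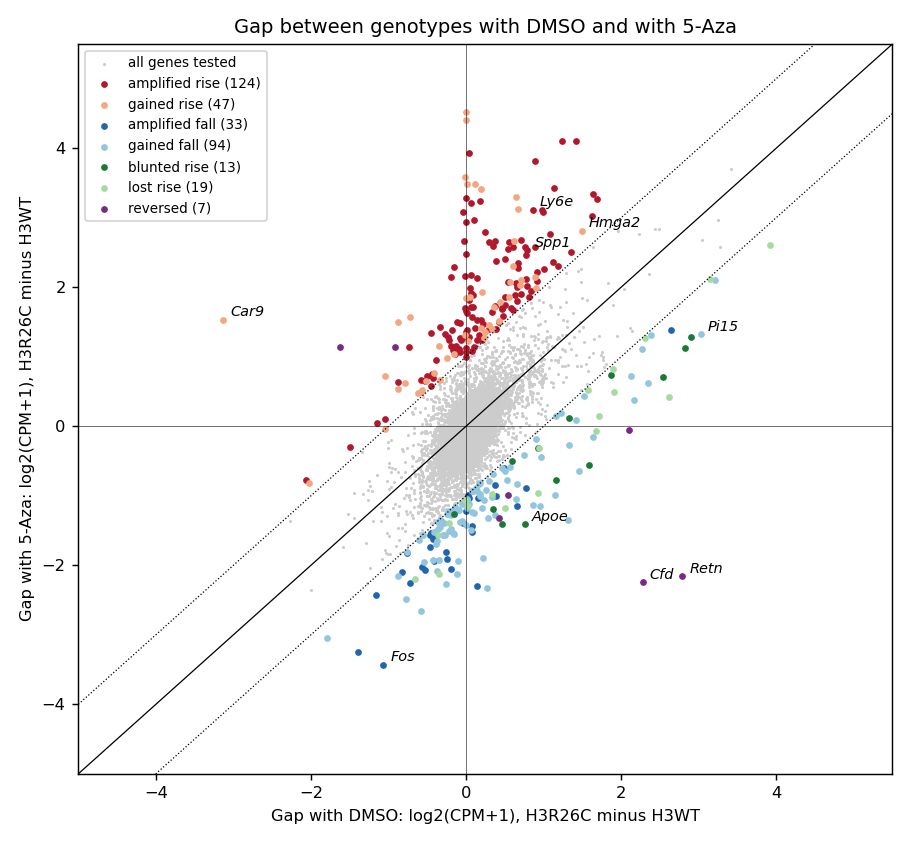
Gap between the genotypes, log2(CPM + 1) in H3R26C minus H3WT, with DMSO (x axis) and with 5-Aza (y axis) for the 9241 genes tested, with 1 library per condition. The solid line marks equal gaps, the dotted lines a genotype difference of 1 and -1, and colours give the class; amplified rises (dark red) gather near 0 on the x axis, and blunted and lost rises (greens) lie mostly to its right.

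The largest positive difference among genes at 50 CPM or more was that of Car9 (chr4:43506966-43513729, + strand), which encodes carbonic anhydrase 9, a cell surface enzyme that buffers acid and a standard marker of the transcriptional response to low oxygen. Its level went from 30.4 to 44.5 CPM in H3WT and from 2.57 to 131 CPM in H3R26C. The H3WT cells responded by 0.53 and the H3R26C cells by 5.21, which gave a difference of 4.67 (4.51 to 4.83). With DMSO the H3R26C library was the lowest of the 4, and with 5-Aza it was the highest. Car9 was one of the few gained rises in which the gap with DMSO was the larger part, at -3.14 against 1.53 with 5-Aza.

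Genes of the hypoxia response, which transcription factors of the HIF family control, were put together as a list that includes Car9. The list was made after Car9 and some of its other members had been seen, so that their number is a description and no evidence. Of 21 tested members, 8 (38.1%), Car9 among them, had a difference of at least 1 and none one of -1 or less. Of these 8, 2 (Mgarp and Egln3) reached the expression minimum in H3R26C 5-Aza alone. The median was 0.81 against -0.09 over all genes. Ndufa4l2, a mitochondrial protein that lowers respiration, went from 0.610 to 46.7 CPM in H3WT and from 0.404 to 211 CPM in H3R26C, a difference of 2.35 (2.13 to 2.56). Mgarp, which acts in mitochondrial transport, went from 1.34 to 9.09 CPM in H3WT and from 1.88 to 62.1 CPM in H3R26C, with a difference of 2.34 (2.11 to 2.58). These 2 genes were low in both DMSO libraries and rose in both genotypes, by more in H3R26C.

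Egln3, one of the prolyl hydroxylases that mark HIF for destruction and are themselves induced by it, had 1 UMI with DMSO in H3WT and 0 in H3R26C, where a count of 0 allows up to 0.0357 CPM. With 5-Aza it stood at 3.85 and 20.8 CPM, a difference of 2.19 (2.03 to 2.34) that depends on the pseudocount and was 1.55 with one of 5 CPM. Ero1l, an oxidase of protein folding, rose from 38.4 to 78.5 CPM in H3WT and from 33.7 to 206 CPM in H3R26C (1.56 (1.48 to 1.64)). Ankrd37 (1.87), Fam162a (1.20) and the collagen prolyl hydroxylase subunit P4ha2 (1.09) made up the rest of the 8. Other classical members moved less, with differences of 0.43 for the angiogenic factor Vegfa, 0.86 for the glucose transporter Slc2a1, 0.89 for Pdk1 and 0.79 for Bnip3, and -0.75 for the glycolytic regulator Pfkfb3.

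The glycolytic enzymes, a list also made after values were seen, were nearly all on the same side. Of 14 tested, 13 had a difference above 0, the median was 0.52, and 2 reached 1. Pgk1, which makes ATP in glycolysis, was at 362 and 446 CPM in H3WT and 324 and 918 CPM in H3R26C with DMSO and 5-Aza, a difference of 1.20 (1.17 to 1.23). Gpi1, which isomerises glucose 6-phosphate, was at 225 and 272 CPM in H3WT and 229 and 635 CPM in H3R26C in that order (1.19 (1.15 to 1.23)). Both had moved by under 1.5-fold in H3WT and more than doubled in H3R26C. Both medians were close when only cells called in G1 phase were summed, at 0.84 for the hypoxia-response and 0.52 for the glycolytic list.

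Promoter sequences of the hypoxia-response genes Car9 and Egln3 and of the glycolytic gene Pgk1 are shown because a short motif is frequent in promoters of the hypoxia-response list and is also found in that of Pgk1. RefSeq promoters (GRCm38.p6, 250 bases before to 50 after the annotated start, in the direction of the gene) were found for 18 of the 21 hypoxia-response genes. The core of the hypoxia response element, ACGTG on either strand, was present in 15 of the 18 (83.3%) and in 31.0% of the promoters of all genes tested that had one. It was present in all 7 promoters of the members with a difference of at least 1 and in 8 of 11 (72.7%) of those with a difference under 1. A match is a description of these letters and not a binding site. The list was made of genes that HIF factors control, after values were seen. A high share of the motif is in part set by that choice, so these shares are a description and no evidence. Whether the motif goes with the size of the difference was not tested. Capitals mark ACGTG or its complement CACGT in the promoters of Car9 (chr4:43506776-43507075, + strand), Egln3 (chr12:54203825-54204124, − strand) and Pgk1 (chrX:106186850-106187149, + strand).
Car9: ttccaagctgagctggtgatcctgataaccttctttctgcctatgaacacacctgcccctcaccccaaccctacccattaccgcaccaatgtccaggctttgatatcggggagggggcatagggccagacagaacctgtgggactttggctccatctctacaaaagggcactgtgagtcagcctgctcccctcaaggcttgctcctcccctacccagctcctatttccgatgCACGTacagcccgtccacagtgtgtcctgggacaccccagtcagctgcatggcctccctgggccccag
Egln3: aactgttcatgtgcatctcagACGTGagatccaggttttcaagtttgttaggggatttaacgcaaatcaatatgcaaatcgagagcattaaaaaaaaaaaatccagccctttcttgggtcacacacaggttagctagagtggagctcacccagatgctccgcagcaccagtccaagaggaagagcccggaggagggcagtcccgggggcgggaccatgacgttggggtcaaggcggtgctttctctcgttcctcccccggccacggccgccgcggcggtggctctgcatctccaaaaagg
Pgk1: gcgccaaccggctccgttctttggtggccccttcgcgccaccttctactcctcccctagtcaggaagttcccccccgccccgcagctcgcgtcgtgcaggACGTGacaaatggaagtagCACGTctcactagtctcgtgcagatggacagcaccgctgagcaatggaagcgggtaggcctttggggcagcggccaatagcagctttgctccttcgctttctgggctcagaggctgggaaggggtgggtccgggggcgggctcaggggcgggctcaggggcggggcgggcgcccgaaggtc

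Among all lists, that of the interferon-stimulated genes held the most members with the higher response in H3R26C. Of 38 tested members, 16 (42.1%) had a difference of at least 1 and none one of -1 or less. Of the 38, 12 reached the expression minimum in H3R26C 5-Aza alone, and 9 of these are among the 16, so that the share is a description and not set against the background. Of the other 26, 7 had a difference of at least 1. The difference was above 0 in 31 of the 38, and the median was 0.67. Their summed level went from 1821 to 3124 CPM in H3WT and from 2652 to 6404 CPM in H3R26C. The median gap between the genotypes was 0.45 with DMSO and 1.33 with 5-Aza, so that the list was higher in H3R26C under both treatments.

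Isg15 (chr4:156199424-156200818, − strand), a ubiquitin-like modifier that is joined to proteins in cells exposed to interferon, rose from 13 to 65.2 CPM in H3WT and from 23 to 363 CPM in H3R26C. Its difference was 1.69 (1.58 to 1.80). Irf7, the transcription factor that amplifies interferon production, rose from 2.46 to 6.84 CPM in H3WT and from 4.65 to 49 CPM in H3R26C, with a difference of 1.97 (1.75 to 2.18). In both genes the H3R26C 5-Aza library stood far above the other 3. The RNA-binding effectors Ifit1 and Ifit3 had levels of 8.24 and 23.8 CPM in H3WT and 12.4 and 104 CPM in H3R26C and of 20.4 and 31.8 CPM in H3WT and 21.7 and 119.8 CPM in H3R26C, each with DMSO first, and differences of 1.54 and 1.80. Ifit3b, a near-identical neighbour of Ifit3 whose reads could be shared with it, had a difference of 1.85. Ifi27l2a, a small membrane protein, rose from 23.3 to 62.7 CPM in H3WT and from 74.8 to 645 CPM in H3R26C (1.70 (1.62 to 1.78)).

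The remaining members past 1 were Ifi44 (2.30), the 2′-5′ oligoadenylate synthetase-like gene Oasl2 (1.70), the Isg15 protease Usp18 (1.61), Trim30a (1.36), the exonuclease gene Isg20 (1.30), the Z-nucleic acid sensor Zbp1 (1.26), Rtp4 (1.23), the GTPase gene Igtp (1.15), Xaf1 (1.08) and the virus tether Bst2 (1.07). Of these 10, all but Igtp rose in both genotypes. Ifi44 was at 1.32 CPM or less outside H3R26C 5-Aza, and its difference was 1.47 with a pseudocount of 5 CPM. Among 7 sensors and editors of double-stranded RNA, Dhx58 (1.23) and Zbp1 reached 1, with a median of 0.31. Both reached the expression minimum in H3R26C 5-Aza alone, and none of the other 5 had a difference of at least 1. None of 16 genes of MHC class I antigen presentation did, and their median was 0.17.

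Within the interferon list 29 of 38 genes had a RefSeq promoter, below the 80% set for comparing shares, so that no share of the list is given. Promoters of Isg15 (chr4:156200769-156201068, − strand) and Ifit3 (chr19:34583279-34583578, + strand) are shown as the clearest cases of the element that interferon-activated factors bind, read as GAAA, any 2 bases and GAAA again on either strand, in capitals (TTTC, 2 bases and TTTC is its complement). Isg15 held 3 overlapping copies and Ifit3 held 2, and 3.63% of the promoters of all genes tested held at least 1. Irf7 held none in this window.
Isg15: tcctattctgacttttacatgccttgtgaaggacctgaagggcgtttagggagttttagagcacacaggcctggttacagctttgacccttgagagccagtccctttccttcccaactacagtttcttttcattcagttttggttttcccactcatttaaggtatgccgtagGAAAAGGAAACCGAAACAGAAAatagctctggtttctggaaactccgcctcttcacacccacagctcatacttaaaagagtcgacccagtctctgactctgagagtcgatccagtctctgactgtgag
Ifit3: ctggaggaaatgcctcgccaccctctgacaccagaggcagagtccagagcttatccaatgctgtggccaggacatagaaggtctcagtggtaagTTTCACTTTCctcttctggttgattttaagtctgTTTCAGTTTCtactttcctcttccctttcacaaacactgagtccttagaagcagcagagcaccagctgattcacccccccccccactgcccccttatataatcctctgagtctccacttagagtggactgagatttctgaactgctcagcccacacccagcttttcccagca

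Outside these groups, the amplified rises of large size among genes at 50 CPM or more included Alox5ap and Crabp1. Alox5ap, which presents arachidonic acid to the enzyme that makes leukotrienes, rose from 0.829 to 5.63 CPM in H3WT and from 2.39 to 92.8 CPM in H3R26C, a difference of 2.93 (2.69 to 3.17). Alox5ap reached the expression minimum in H3R26C 5-Aza alone, so it was tested only through the library in which it was high. The retinoic acid-binding protein gene Crabp1 rose from 0.0576 to 12.8 CPM in H3WT and from 1.49 to 236 CPM in H3R26C, a difference of 2.87 (2.69 to 3.07). It was nearly silent in H3WT DMSO, and with a pseudocount of 0.1 CPM the difference was 0.86.

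Among 8 tested genes of retinoid binding and metabolism, a list made after these values were seen, 2 had a difference of at least 1 and 2 one of -1 or less. The binding proteins Crabp1 and Rbp2 (2.13, but 0.34 with a pseudocount of 0.1 CPM) were on the positive side. Rbp2 reached the expression minimum in H3R26C 5-Aza alone. The dehydrogenases Adh1 and Dhrs9, which oxidise retinol, were on the negative side. Adh1 was at 23 and 38 CPM in H3WT and 22.8 and 17.6 CPM in H3R26C with DMSO and 5-Aza (-1.05 (-1.17 to -0.94)), and Dhrs9 at 3.57 and 14 CPM in H3WT and 7.78 and 11 CPM in H3R26C (-1.26 (-1.45 to -1.06)). In both the rise of H3WT was lost in H3R26C, where the levels with and without 5-Aza differed by less than 1.5-fold.

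Genes for secreted and surface proteins were prominent by level. Spp1 (chr5:104435118-104441050, + strand), which encodes osteopontin, an acidic matrix protein that binds integrins, rose from 275 to 847 CPM in H3WT and from 476 to 4905 CPM in H3R26C. Its difference was 1.74 (1.72 to 1.77), while among its receptors the integrin subunit gene Itga9 had a difference of -1.27 that shrank to -0.51 with a pseudocount of 5 CPM. Ly6e (chr15:74955051-74959905, + strand), a lipid-anchored surface protein induced by interferon, rose from 15.7 to 101 CPM in H3WT and from 29.2 to 884 CPM in H3R26C (2.25 (2.16 to 2.35)). Ly6c2, which shares reads with a close paralog, had levels of 44.3 and 87.9 CPM in H3WT and 40.1 and 182 CPM in H3R26C with DMSO and 5-Aza (1.18), and the median of the 6 tested Ly6 family genes was 0.21.

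Other amplified rises came from lists in which few members moved. Of 19 imprinted genes 1 had a positive difference past 1, the zinc finger gene Peg3, which stood at 0.184 and 2.02 CPM in H3WT and 0.0595 and 13.8 CPM in H3R26C with DMSO and 5-Aza (2.45 (2.23 to 2.67)). Of 21 collagen chains Col14a1 did, with levels of 0.0460 and 1.40 CPM in H3WT and 0.238 and 15.6 CPM in H3R26C (2.55 (2.32 to 2.77)). Igfbp6, a binding protein with preference for IGF2, went from 0.184 to 5.35 CPM in H3WT and from 0.809 to 37 CPM in H3R26C (1.97 (1.74 to 2.20)), and Igfbp2 had a difference of 1.20. With a pseudocount of 5 CPM, Peg3 and Col14a1 had differences of 1.45 and 1.63. The osteogenic list held Spp1 and the pyrophosphate-producing enzyme Enpp1 (1.38) past 1 of 11 tested, and the chemokine list held Ccl8 (2.12) of 9. Peg3, Col14a1, Igfbp6 and Ccl8 reached the expression minimum in H3R26C 5-Aza alone, so they were tested only through the library in which they were high.

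Gained rises were those in which H3WT moved by less than 1.5-fold. The growth-associated chromatin protein gene Hmga2 went from 6.52 to 9.37 CPM in H3WT and from 20.1 to 71.9 CPM in H3R26C, a difference of 1.32 (1.17 to 1.48). It was 1.90 within G1 cells but 0.31 within G2M cells. Penk, the precursor of enkephalin peptides, was at 45.4 and 43.2 CPM in H3WT and 21.4 and 72.1 CPM in H3R26C with DMSO and 5-Aza, a difference of 1.78 (1.68 to 1.87). The caveolin genes Cav1 and Cav2, which build the plasma membrane pits called caveolae, had differences of 1.82 (1.70 to 1.95) and 1.22 (1.13 to 1.31). Cav1 rose in both genotypes, from 12.3 to 22.1 CPM in H3WT and from 21.6 to 138 CPM in H3R26C, and Cav2 was at 35.7 and 37.4 CPM in H3WT and 41 and 101 CPM in H3R26C. In the caveolae list, made after values were seen, 3 of 8 members reached 1 and the median was 0.11. AY036118, a non-coding transcript, was at 1627 and 1193 CPM in H3WT and 942 and 1834 CPM in H3R26C (1.41 (1.39 to 1.43)).

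In the amino acid stress list, also made after values were seen, Asns, which synthesises asparagine, and Chac1, which degrades glutathione, reached 1 of 14 tested. Asns was at 27.4 and 36 CPM in H3WT and 20.3 and 61.7 CPM in H3R26C with DMSO and 5-Aza, and Chac1 at 26.3 and 26.5 CPM in H3WT and 18 and 42.3 CPM in H3R26C. Their differences were 1.18 (1.07 to 1.29) and 1.18 (1.06 to 1.29), and the list's median was 0.41. The secreted Wnt deacylase gene Notum, an inhibitor of Wnt ligands, was at 0.541 and 0.735 CPM in H3WT and 1.40 and 16.1 CPM in H3R26C, a difference of 2.66 (2.39 to 2.94) and of 1.67 with a pseudocount of 5 CPM. Dusp6, a phosphatase of the ERK pathway, was at 4.79 and 6.86 CPM in H3WT and 6.76 and 21.5 CPM in H3R26C (1.09 (0.90 to 1.29)), and its difference was 0.86 within G1 cells.

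**Figure D3:**
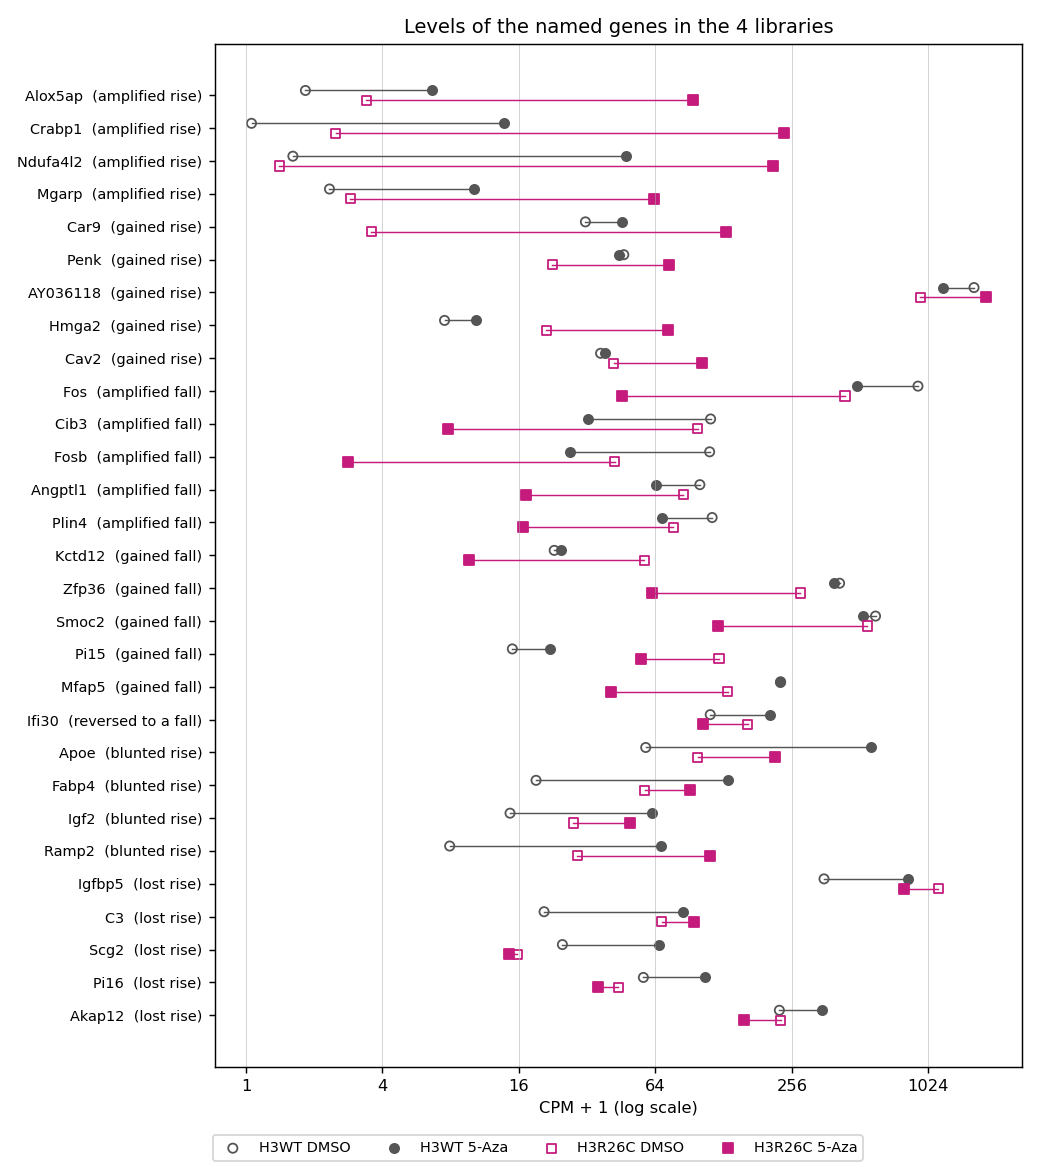
Level of 29 genes in the 4 libraries, as CPM + 1 on a log axis, with the class of each gene in brackets. Grey lines join DMSO (open circles) to 5-Aza (filled circles) in H3WT and magenta lines join DMSO (open squares) to 5-Aza (filled squares) in H3R26C. The magenta line is the longer one for the amplified and gained genes, from Alox5ap down to Mfap5, and the grey line is the longer one from Apoe on.

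Muscle genes rose strongly with 5-Aza in both genotypes, and the genotype differences were small. None of 9 tested skeletal muscle markers reached 1 in either direction, with a median of 0.41. The actin gene of skeletal muscle, Acta1, rose from 0.161 to 533 CPM in H3WT and from 0.0833 to 672 CPM in H3R26C, a difference of 0.43 (0.29 to 0.58). Myog, the transcription factor that starts terminal muscle differentiation, rose to 62.7 CPM in H3WT and to 97.4 CPM in H3R26C, from 1 UMI and 0 UMIs, with a difference of 0.64. Ckm, the muscle creatine kinase gene, was the one marker with a negative value, -0.24. Of 24 sarcomere genes, Tnni1 (1.18) reached 1 and the median was 0.01.

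The regulators of muscle commitment and fusion had a median of 0.42, close to that of the skeletal muscle markers. Of 14 tested, 4 had a difference of at least 1, 1 of them a gene that reached the expression minimum in H3R26C 5-Aza alone (Cdh15). Mymx, a small membrane protein needed for myoblast fusion, had levels of 0.104 and 14.2 CPM in H3WT and 0.0952 and 48.6 CPM in H3R26C with DMSO and 5-Aza (1.72 (1.56 to 1.88)). The subunit genes of the embryonic acetylcholine receptor, Chrna1 and Chrng, had differences of 1.61 and 1.36, and the satellite cell cadherin gene Cdh15 one of 1.27. The muscle marker cells made up 15.7% and 16.6% of the 5-Aza libraries. Without them the differences were 1.06 for Mymx, 1.47 for Chrna1, 0.61 for Chrng, 0.93 for Cdh15 and 0.71 for Tnni1. Ankrd1, a stretch-responsive gene of muscle and a target of Yap, likewise had 1.56 with all cells and 0.72 without them.

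Among the falls, the transcription factor gene Fos (chr12:85473890-85477273, + strand) had the largest negative difference of the amplified class at 50 CPM or more. Fos is a component of the AP-1 dimer and is induced within minutes of growth or stress signals. Its level went from 921 to 494 CPM in H3WT and from 438 to 44.7 CPM in H3R26C, with responses of -0.90 and -3.26 and a difference of -2.37 (-2.41 to -2.32). Fosb, a close relative, went from 110.0 to 25.8 CPM in H3WT and from 41.3 to 1.82 CPM in H3R26C (-1.86 (-2.01 to -1.70), but -0.86 with a pseudocount of 5 CPM). Both were lower in H3R26C than in H3WT with DMSO as well. The other AP-1 genes did not share the size of the change, since 2 of 9 were past -1 and the median was -0.37.

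Zfp36 (chr7:28376784-28380253, − strand) encodes tristetraprolin, which binds AU-rich RNA and speeds its decay. It was at 415 and 390.2 CPM in H3WT and 278 and 61 CPM in H3R26C with DMSO and 5-Aza, with a response of -0.09 in H3WT and of -2.17 in H3R26C and a difference of -2.08 (-2.12 to -2.04). Of 18 early response genes, Zfp36 was the one past -1 and Dusp6 the one past 1, with a median of -0.23. Dusp6 reached the expression minimum in H3R26C 5-Aza alone. Within G2M cells the differences were -1.53 for Fos, -0.49 for Fosb and -1.47 for Zfp36, and within G1 cells they were -2.31, -1.90 and -2.04.

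Gained falls included genes of the extracellular matrix. Smoc2, a calcium-binding matricellular protein, was at 598 and 526 CPM in H3WT and 549.6 and 119.9 CPM in H3R26C with DMSO and 5-Aza, a difference of -2.0 (-2.04 to -1.97). Mfap5, a microfibril glycoprotein, was at 227 and 226 CPM in H3WT and 132 and 39.6 CPM in H3R26C in that order (-1.71 (-1.76 to -1.65)), and the elastin gene Eln at 441 and 554 CPM in H3WT and 126 and 66 CPM in H3R26C (-1.25 (-1.30 to -1.21)). In each of the 3 the H3R26C 5-Aza library was the lowest of the 4. Over 19 elastic fibre and microfibril genes the median was -0.46, 1 was above 0 and 2 passed -1. Over 21 collagen chains it was -0.27, with Col23a1 past -1 at -1.81 (-1.98 to -1.64). The matrix metalloproteinases and inhibitors had a median of -0.50 over 10 genes with none past -1, and the small leucine-rich proteoglycans one of -0.06 over 11.

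Ccn3, a matricellular protein that restrains growth, was at 531 and 597 CPM in H3WT and 831 and 288 CPM in H3R26C with DMSO and 5-Aza (-1.69 (-1.72 to -1.67)). The secreted Wnt antagonist Sfrp2 was at 395 and 409.9 CPM in H3WT and 510.3 and 169 CPM in H3R26C (-1.64 (-1.68 to -1.61)), and its relative Sfrp1 fell from 97.8 to 41.2 CPM in H3WT and from 138 to 27 CPM in H3R26C (-1.08 (-1.16 to -1.0)). With the ligand gene Wnt5b (-1.41) they made 3 of the 7 tested Wnt genes past -1. Notum, which reached the expression minimum in H3R26C 5-Aza alone, was the one past 1. The median of the 7 was -0.70. Sfrp1 was at the boundary within G1 cells, at -1.0.

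The remaining falls named by size were of varied function. Kctd12, an auxiliary subunit of GABA-B receptors, was at 21.9 and 23.5 CPM in H3WT and 56.2 and 8.63 CPM in H3R26C with DMSO and 5-Aza, the largest gained fall at -2.67 (-2.79 to -2.54). H3R26C was above H3WT with DMSO and below it with 5-Aza. Pi15, a secreted protein of the CAP family, was at 14 and 21 CPM in H3WT and 121 and 54.1 CPM in H3R26C (-1.71 (-1.82 to -1.60)) and stayed higher in H3R26C under both treatments. Amplified falls included the calcium-binding protein gene Cib3, which fell from 111 to 31.3 CPM in H3WT and from 97.4 to 6.80 CPM in H3R26C (-1.86 (-1.97 to -1.75)), the angiopoietin-like gene Angptl1, which fell from 99.5 to 63.2 CPM in H3WT and from 83.9 to 16.2 CPM in H3R26C (-1.66 (-1.75 to -1.57)), and the lipid droplet coat gene Plin4, which fell from 113 to 67.3 CPM in H3WT and from 75.8 to 15.7 CPM in H3R26C (-1.46 (-1.55 to -1.37)). Within G2M cells the difference of Angptl1 was -0.21.

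3 histone genes were among the gained falls. Hist1h3g, Hist1h2bc and Hist1h4h had differences of -1.27 (-1.36 to -1.18), -1.11 (-1.20 to -1.02) and -1.08 (-1.21 to -0.95). Hist1h3g was at 65.4 and 62.9 CPM in H3WT and 50.1 and 19.4 CPM in H3R26C with DMSO and 5-Aza. The replication-dependent histone genes, which are made mainly in S phase from RNA without a poly(A) tail, had a median of -0.66 over 14 tested members, and 2 were above 0. How well RNA without such a tail was captured was not tested, so these values need not reflect total histone RNA. The share of cells called in S phase was higher in H3R26C than in H3WT under both treatments, at 5.88% against 2.86% with DMSO and 10.8% against 4.51% with 5-Aza, and its part in these values was not tested. Within S-phase cells the median was -0.90. The copies of these genes are nearly identical, so how reads were split among them is uncertain.

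Responses that were smaller in H3R26C were few. Apoe (chr7:19696109-19699188, − strand), the lipid carrier apolipoprotein E, rose from 57 to 571 CPM in H3WT and from 97.2 to 214 CPM in H3R26C. The responses were 3.30 and 1.13, a difference of -2.17 (-2.23 to -2.12). H3R26C stood above H3WT with DMSO and below it with 5-Aza. The growth factor gene Igf2, an imprinted gene, rose from 13.6 to 60.8 CPM in H3WT and from 26.8 to 48.6 CPM in H3R26C (-1.24 (-1.35 to -1.13)), and Ramp2, which makes a receptor respond to adrenomedullin, rose from 6.92 to 66.5 CPM in H3WT and from 27.9 to 111 CPM in H3R26C (-1.14 (-1.26 to -1.01)). Both were higher in H3R26C than in H3WT with DMSO, and Ramp2 also with 5-Aza. Tagln, an actin-binding protein of smooth muscle, rose from 2.15 to 23.1 CPM in H3WT and from 6.03 to 13.1 CPM in H3R26C (-1.93 (-2.13 to -1.72)) and was the one of 12 smooth muscle genes past -1, with a list median of -0.31.

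Lost rises, in which the level rose in H3WT alone, were led by level by Igfbp5 (chr1:72857932-72874884, − strand), a matrix-bound IGF-binding protein. It was at 354 and 835 CPM in H3WT and 1134 and 799.7 CPM in H3R26C with DMSO and 5-Aza, a difference of -1.74 (-1.76 to -1.72), and the 2 genotypes were level with 5-Aza. The complement component gene C3 was at 19.7 and 83.9 CPM in H3WT and 67.1 and 93.3 CPM in H3R26C (-1.57 (-1.66 to -1.48)), also with similar levels under 5-Aza. The secretory granule protein gene Scg2 was at 23.9 and 65.2 CPM in H3WT and 14.7 and 13.4 CPM in H3R26C (-1.54 (-1.66 to -1.41)), the peptidase inhibitor gene Pi16 at 55.6 and 105 CPM in H3WT and 42.9 and 34.8 CPM in H3R26C (-1.20 (-1.28 to -1.12)) and the kinase anchor gene Akap12 at 224 and 347 CPM in H3WT and 228 and 156 CPM in H3R26C (-1.16 (-1.20 to -1.13)). For these 3 the genotypes stood further apart with 5-Aza than with DMSO. The difference of Scg2 was 0.14 within G2M cells, and the imprinted gene Ndn had one of -1.03.

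Adipocyte markers had the most negative median of all lists, and for some of them nearly all UMIs came from few cells. Of 6 tested adipocyte markers 5 were past -1, with a median of -2.02 against -0.09 over all genes. Retn, among these 5, reached the expression minimum in H3WT 5-Aza alone. It was tested only through the library in which it was high, so this count and median are a description. Retn (chr8:3655770-3660110, + strand), the fat cell hormone resistin, was at 0.265 and 10.8 CPM in H3WT and 7.76 and 1.63 CPM in H3R26C with DMSO and 5-Aza, a difference of -4.95 (-5.17 to -4.71). Cfd, the serine protease adipsin, was at 5.99 and 35.2 CPM in H3WT and 32.9 and 6.64 CPM in H3R26C (-4.52 (-4.68 to -4.36)). Both responses were reversed, from a rise in H3WT to a fall in H3R26C. The fatty acid carrier gene Fabp4 was at 18 and 132 CPM in H3WT and 56.4 and 89.7 CPM in H3R26C (-2.15 (-2.24 to -2.06)), the adipocyte hormone gene Adipoq at 8.20 and 24.3 CPM in H3WT and 16.5 and 12 CPM in H3R26C (-1.89 (-2.04 to -1.74)) and Car3 at 0.161 and 28.5 CPM in H3WT and 0.595 and 10.1 CPM in H3R26C (-1.87 (-2.08 to -1.65)).

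The 11, 38, 12 and 19 cells with at least 3 adipocyte markers held nearly all the UMIs of Retn and most of those of Cfd, in part because the markers choose the cells. For Cfd they held 426 of 520 UMIs in H3WT DMSO, 2896 of 2968 in H3WT 5-Aza, 2720 of 2764 in H3R26C DMSO and 708 of 735 in H3R26C 5-Aza. For Retn they held 22 of 23, 894 of 909, 634 of 652 and 170 of 181 UMIs in the same order. With 5-Aza the share was smaller for Car3, Fabp4 and Lipe. In H3WT 5-Aza and H3R26C 5-Aza it was 44.7% and 33.4% for Car3, 56.9% and 23.8% for Fabp4 and 36.4% and 17.8% for Lipe. For Adipoq, 91.6% and 93.7% of the UMIs were in the marker cells. Without these and the muscle marker cells the differences were -0.15 for Cfd, -0.34 for Retn, -0.26 for Adipoq, -0.92 for Car3 and 0.86 for Fabp4, so the sign of Fabp4 turned. In the remaining cells Fabp4 was at 13.2 and 59.1 CPM in H3WT and at 8.32 and 70.6 CPM in H3R26C with DMSO and 5-Aza. The median of the 6 markers was then -0.27.

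The number of marker cells and the UMIs per marker cell can be read apart here. With DMSO and 5-Aza the marker cells made up 0.296% and 0.634% of the kept cells in H3WT and 0.254% and 0.249% in H3R26C. Cfd had 38.7 and 76.2 UMIs per marker cell in H3WT and 227 and 37.3 in H3R26C, and Retn had 2.0 and 23.5 in H3WT and 52.8 and 8.95 in H3R26C. Both the share of marker cells and the UMIs of Cfd and Retn per marker cell were thus higher with 5-Aza in H3WT. In H3R26C the share was nearly level and the UMIs of Cfd and Retn per marker cell were lower. Among the markers, Lipe alone went the other way in H3WT, at 13.8 and 8.53, and Car3 alone in H3R26C, at 3.42 and 19.6. Adipoq (48.2 and 49.4) and Plin1 (5.27 and 5.76) were nearly level in H3WT. These are means over 11 to 38 cells of 1 library each, chosen by the same markers. They were not scaled for depth. The median UMIs per kept cell with DMSO and 5-Aza were 22420 and 13149 in H3WT and 16598 and 13123 in H3R26C. The part of depth in the values per marker cell was not tested.

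Of 18 tested genes of lipid storage and synthesis, 5 are also adipocyte markers (Retn, Cfd, Fabp4, Adipoq and Lipe). Of the 13 that are not, Plin4 was the one past -1, with a median of -0.46, and of -0.25 without the marker cells. The difference of Plin4 was -1.45 without the marker cells, close to the -1.46 with all cells. The median over all 18 was -0.54. Of 10 adipogenic transcription factors, Klf5 had a difference of 1.35 (1.12 to 1.59) and none passed -1, with a median of -0.35. Klf5 reached the expression minimum in H3R26C 5-Aza alone.

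Besides Retn and Cfd, the response was reversed for 5 genes, which are named after their values were seen except for Ifi30. Ifi30, a lysosomal thiol reductase of antigen processing, rose in H3WT and fell in H3R26C, from 111 to 205 CPM in H3WT and from 162 to 103 CPM in H3R26C (-1.54 (-1.59 to -1.49)). The aminopeptidase gene Enpep was at 1.60 and 3.15 CPM in H3WT and 10.2 and 3.02 CPM in H3R26C with DMSO and 5-Aza (-2.15 (-2.40 to -1.90)), and Arhgap20 at 11.6 and 25.9 CPM in H3WT and 16 and 9.84 CPM in H3R26C (-1.74 (-1.88 to -1.59)). In the other direction, Depp1, a target of FOXO factors, was at 9.46 and 5.85 CPM in H3WT and 2.40 and 14 CPM in H3R26C (2.75 (2.54 to 2.97)), and the growth factor gene Hbegf at 17.2 and 10.6 CPM in H3WT and 8.64 and 24.6 CPM in H3R26C (2.06 (1.90 to 2.21)). The genotype difference of each of these 5 kept its direction without the marker cells and within G1 cells. The reversal itself was less stable. Reversals to a rise numbered 2 with all cells and 1 without the marker cells, so Depp1 or Hbegf was no longer reversed there. Some responses were close to the 1.5-fold limit, such as the -0.66 of Ifi30 in H3R26C. Enpep reached the expression minimum in H3R26C DMSO alone and Depp1 in H3R26C 5-Aza alone. Each was thus tested only through the library in which it was high. Adamtsl5 at -1.0 and Hmga1b at 1.05 were the genes of opposite and small responses.

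Chemokines were mixed. The monocyte attractant gene Ccl7 was at 21.4 and 30 CPM in H3WT and 96.4 and 50.3 CPM in H3R26C with DMSO and 5-Aza (-1.39 (-1.49 to -1.30)), and the neutrophil attractant gene Cxcl5 at 6.34 and 6.90 CPM in H3WT and 34.4 and 16 CPM in H3R26C (-1.16 (-1.33 to -1.0)). The median of 9 tested chemokines was -0.53. Within G1 cells the difference of Ccl7 was 0.0058, and that value was also the median of the list there.

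The machinery that 5-Aza and the mutation bear on showed no member past 1 in either direction. None of the 13 tested genes in the PRC2 list passed, with a median of -0.16. Values ran from -0.44 for Jarid2 to 0.14 for Eed, the PRC2 subunit that reads the mark. The list also holds genes that are not PRC2 members, Kdm6a (-0.22), Kdm6b (-0.29) and Eloa (-0.21). All of them lie below that median, which is therefore not one of PRC2 genes alone. Ezh2, the catalytic subunit, was at 25.6 and 28.1 CPM in H3WT and 27.2 and 32.7 CPM in H3R26C with DMSO and 5-Aza (0.13 (0.02 to 0.24)). None of 14 DNA methylation and demethylation enzymes passed, with a median of -0.21. The maintenance methyltransferase gene Dnmt1 had a difference of -0.17 (-0.26 to -0.08), Dnmt3a one of -0.48 (-0.58 to -0.38) and the demethylase gene Tet1 one of -0.54 (-0.70 to -0.37).

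Lists of general cell state had no member past 1 in size. The median was 0.01 over 35 S-phase genes and -0.04 over 48 genes of G2 and mitosis, against -0.09 over all genes. It was 0.33 over the 13 genes of mitochondrial DNA, of which 9 were above 0 and whose median lay above the 75th percentile of all genes (0.09), -0.04 over 6 heat shock genes, 0.05 over 6 nuclear-retained RNAs and -0.04 over 18 CDK inhibitors and p53 targets. Only 5 Hox cluster genes and 1 germline gene reached the expression minimum, with medians of -0.36 and 0.26.

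**Figure D4:**
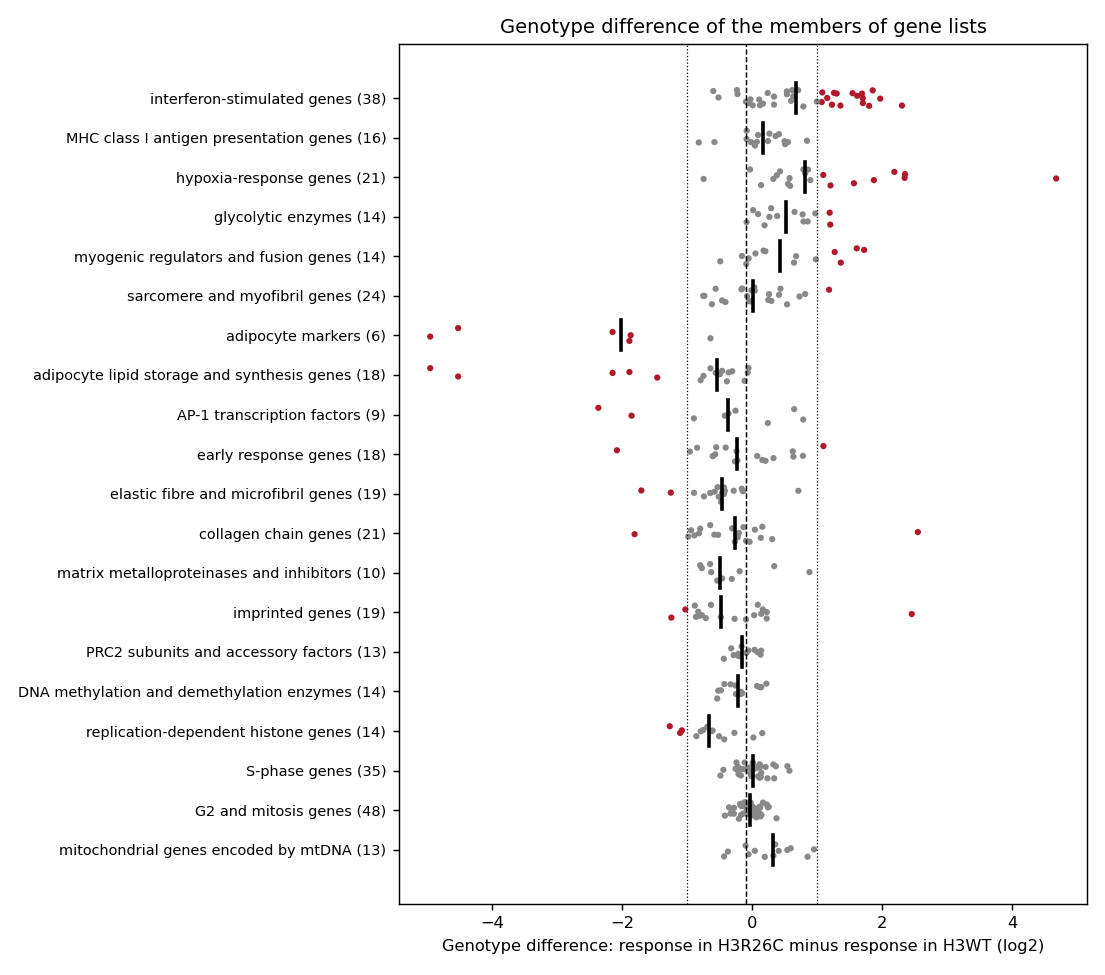
Genotype difference (response in H3R26C minus response in H3WT, log2) of the members of 20 gene lists, with the number tested in brackets and 1 library per condition. Each point is 1 gene (red where the difference is at least 1 in size, outside the dotted lines), the thick bar is the list's median and the dashed line the median of all genes tested, -0.09. Interferon-stimulated and hypoxia-response genes extend to the right, and adipocyte markers to the left.

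Medians of the lists were recomputed within subsets of cells. For the interferon-stimulated genes they ranged from 0.66 to 0.78 over cells without the marker cells and cells in G1, S or G2M phase, and for the hypoxia-response genes from 0.72 to 0.84. The skeletal muscle markers ranged from -0.57 in S-phase cells to 0.72 in G1 cells, and the adipocyte markers from -2.05 in G1 cells to -0.07 in S-phase cells. The phases of the kept cells were called from expression, and cells in S phase numbered 106 to 820 per library.

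**Figure D5:**
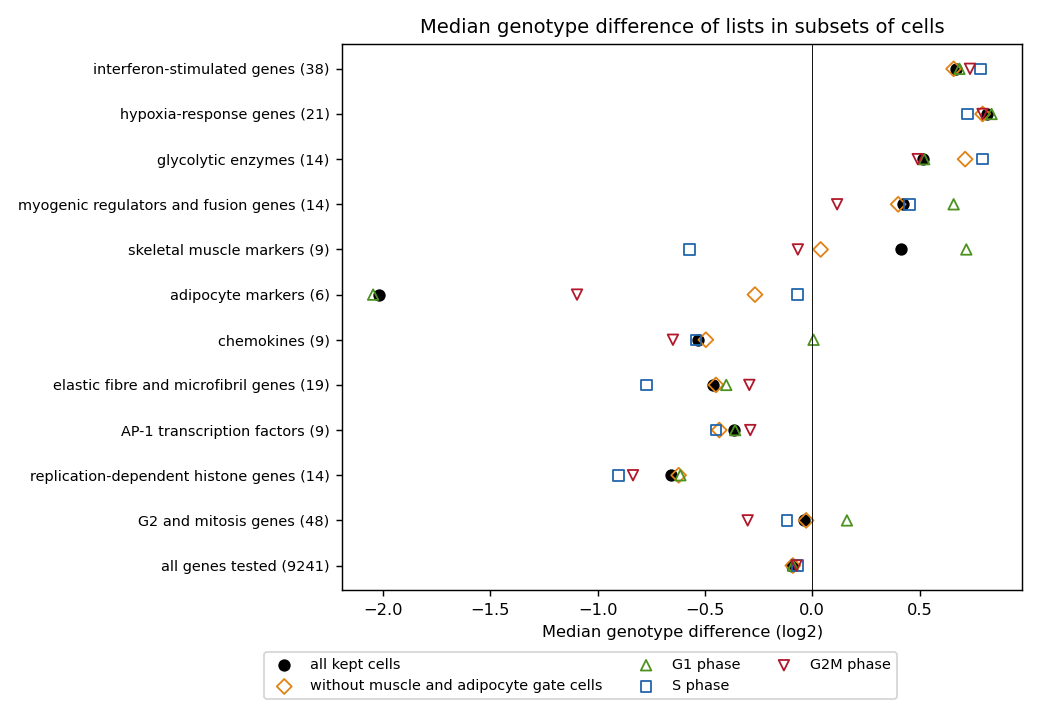
Median genotype difference (log2) of 11 gene lists and of all genes tested, with the number of genes in brackets, in all kept cells (black), without the cells that carried muscle or adipocyte markers (orange diamonds) and in cells called in G1 (green), S (blue) or G2M phase (red). Interferon-stimulated, hypoxia-response and glycolytic genes stay between 0.49 and 0.84 in every subset, whereas the adipocyte and muscle markers move with the cells included.

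Members were found on every autosome and on chromosome X. Positive differences were most frequent on chromosome 15, with 16 of 393 genes tested (4.07%) against 1.88% over all, and negative ones on chromosome 3, with 12 of 446 (2.69%) against 1.79%. The chromosome with the fewest negative differences was 19, at 2 of 343. These shares are descriptions over genes, which are not independent of their neighbours.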

How the data were processed

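Single-cell RNA sequencing on the 10X platform was analysed for 4 libraries, 1 per condition. Reads were counted by the authors on mm10 in Cell Ranger (version 6 in the submitters' processing notes, 6.1.0 in the file headers), and whole, unnormalized UMI counts were deposited for 32285 genes. Barcodes with at least 5000 UMIs, at least 1500 genes and at most 20% mitochondrial UMIs were kept, 3710, 5993, 4727 and 7619 cells for H3WT DMSO, H3WT 5-Aza, H3R26C DMSO and H3R26C 5-Aza. Counts were summed per library and scaled to CPM, and a pseudocount of 1 CPM was used. No doublet caller was run. Cells are not replicates, so no test, SE or p-value was computed. Exact Poisson intervals of the 4 counts were combined by squaring and adding, and cover counting error only. On simulated counts for the 9241 genes, all 200 changed genes were recovered. Each simulated gene had its mean level in every library before the change, and the planted change in CPM was larger than the threshold. Recovery was thus likely from the start, and genes nearly silent with DMSO were not covered.

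The members and lists were chosen with earlier results of these data known, and 5 lists (hypoxia response, glycolysis, amino acid stress, caveolae, retinoid) after the values here were seen. Named genes were the 5 of largest difference per class and direction at 50 CPM or more in a library, list members with a difference of at least 1 in size or that define their list, and the genes nearest the thresholds, and any other gene is said to be named after its values were seen. The values of 1 gene are not reported here. Phases were called with scanpy 1.11.5 from 43 S and 54 G2M genes. Gene positions came from GENCODE M21, matched by identifier for 99.8% of genes. RefSeq promoters (GRCm38.p6) were matched by symbol or synonym for 80.5% of the genes tested but for 73.0% of the members with the higher and 67.3% of those with the lower response, so that a comparison of these sets is void and not given. Python 3.11.15, numpy 2.4.6, scipy 1.17.1, pandas 2.3.3 and edgeR 4.0.16 (TMM factors only) in R 4.3.3 were used. The alternatives changed the pseudocount, scaling, summing, cell filter, expression minimum and cells included.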

Additional observations from a re-analysis of the deposited data

Results flagged for a closer look

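In 7 genes the responses to 5-Aza had opposite directions in the 2 genotypes, each at least 1.5-fold. With 1 library per condition the difference was not tested. The genotype difference was -4.95 for Retn, -4.52 for Cfd, -2.15 for Enpep, -1.74 for Arhgap20 and -1.54 for Ifi30, which rose in H3WT and fell in H3R26C. It was 2.75 for Depp1 and 2.06 for Hbegf, which fell in H3WT and rose in H3R26C. Retn and Cfd had differences of -0.34 and -0.15 without the cells that carried at least 3 muscle or adipocyte markers, and the other 5 genes remained past 1 in size without them.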

How the results depend on the processing

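No paired analysis was possible because a single library stands for each of the 4 conditions. Over 13 alternatives, between 82 and 100 of the 100 named genes kept both their direction and a difference of at least 1 in size. The 100 was fixed in advance under the minimums of 50 and 1 CPM, which leave the value of each gene unchanged. The other alternatives gave 82 to 99. A pseudocount of 0.1 CPM gave 22 blunted rises, 1 lost fall and 0 genes of opposite and small response on the lower side. A pseudocount of 5 CPM gave 88 members with the lower response, 63 amplified and 0 reversed rises, 16 amplified, 52 gained and 3 reversed falls, 6 blunted and 11 lost rises, and 0 opposite and small responses of either sign. A minimum of 50 CPM gave 47 members with the higher and 63 with the lower response, with 36 amplified and 11 gained rises, 0 reversed to a rise, 16 amplified and 36 gained falls, 1 reversed to a fall, 4 blunted and 5 lost rises, and 0 opposite and small on the higher side. A minimum of 1 CPM gave 416 members with the higher response, 190 amplified and 221 gained rises, 12 reversed falls, 36 lost rises, and 3 and 2 opposite and small responses on the higher and lower side. The higher response made up 51.3% of the members in the main setting, 42.7% and 64.1% under these 2 minimums, and 59.4% with 5 CPM added. The fewer or more genes tested set the counts under the 2 minimums, and for the others the cause was not tested.

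Without the marker cells, 8 genes were reversed to a fall, 1 to a rise and 0 were opposite and small on the lower side. The median of the adipocyte markers turned to 0.858, since Fabp4 alone was then at 10 CPM or more, and Fabp4 itself to 0.858. Within G1 cells the chemokine median and Ccl7 turned to 0.00575, and both classes of opposite and small response held 0 genes. Reversals to a rise numbered 1 with the looser cell filter, the mean of single cells and without the 5% of cells with most UMIs, where both opposite and small classes held 0, as they did with totals without the 50 highest genes. The stricter filter gave 0 on the lower side. The other class counts stayed within 1.5 times. Median-of-ratios and TMM scaling moved the median of all genes from -0.09 to -0.03 and gave 187 higher each, with 137 and 133 lower (57.7% and 58.4% higher). Adamtsl5, Ndn and Adh1 were the named genes that these 2 scalings took below 1 in size. The self-test recovers counting error only, so variation between cultures is not covered, and genes near 0 CPM with DMSO depend on the pseudocount.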
